A study of Homo sapiens with 192 samples.

Results

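TGF-beta signalling was followed at the mRNA level through 9 genes: the ligands TGFB1 and TGFB2, the receptors TGFBR1 and TGFBR2, the activin receptor ACVR2A, the signal transducers SMAD2, SMAD3 and SMAD4, and the induced matrix gene TGFBI. They were chosen by name, from the Ensembl identifiers in the count files and with earlier results of these data known. They are 9 of 58243 listed genes. All 9 passed a filter on low counts that left 19387 genes for testing. The samples were colorectal cancer (CRC) cells of 4 established lines, HT29, LS513, HCT116 and LS174T. Each line contributed 3 sequencing libraries from 2D layers and 3 from 3D growth, in all 24 libraries in 8 groups. The culture medium of every line contained fetal bovine serum, HCT116 being kept in McCoy medium and the others in DMEM. Per the study, HT29 and LS513 are microsatellite stable (MSS) and HCT116 and LS174T have microsatellite instability (MSI), so each type is represented by 2 lines, and libraries replicate a line rather than a type. The labels do not say that the libraries came from separate cultures, so p-values measure the spread between these libraries.

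TGF-beta ligands bind the receptor TGFBR2, which recruits and phosphorylates TGFBR1, and activins do the same through ACVR2A or ACVR2B and a type I receptor. The activated type I receptor phosphorylates SMAD2 and SMAD3, which bind SMAD4, enter the nucleus and switch target genes on or off. In the colonic epithelium the pathway restrains growth, and CRC often loses it: MSI tumours mostly through frameshifts in adenine runs of the TGFBR2 and ACVR2A coding sequence, and MSS tumours more often through SMAD4. HT29 is known to carry an inactivating SMAD4 mutation. Counts per gene do not show such mutations.

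The adenine runs for which TGFBR2 and ACVR2A are known in MSI cancer are shown first, with the other run of that length found among the 9 genes. Coding sequences of 1 principal transcript per gene (GENCODE 29, GRCh38) were searched for runs of at least 8 identical bases on the coding strand. Of the 9 genes, 3 had one, against 5.71% of 19684 coding genes. TGFBR2 and ACVR2A were known for their runs before the search, so this comparison only describes the 9 genes. A run of at least 10, as in TGFBR2, was found in 0.345% of coding genes. The capitals mark the run, with 15 bases of coding sequence on each side.
TGFBR2, exon 3 of 7: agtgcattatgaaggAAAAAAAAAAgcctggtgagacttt
ACVR2A, exon 3 of 11: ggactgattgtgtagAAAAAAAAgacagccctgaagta
ACVR2A, exon 10 of 11: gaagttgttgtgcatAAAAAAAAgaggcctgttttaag
TGFB2, exon 5 of 7: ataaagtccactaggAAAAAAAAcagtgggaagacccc

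The TGFBR2 run lies on the plus strand at chr3:30650380-30650389 and covers codons 125 to 128 of 567. The ACVR2A runs lie on the plus strand at chr2:147899472-147899479, codons 93 to 95 of 513, and at chr2:147926117-147926124, codons 435 to 437; the bases before the former come from the preceding exon. The TGFB2 run lies on the plus strand at chr1:218436029-218436036, codons 272 to 274 of 414. The longest run was 7 bases in TGFBI, 6 in SMAD3, SMAD4 and TGFB1, and 5 in TGFBR1 and SMAD2. The length of these runs in the 4 lines was not measured here.

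Library totals were between 18723942 and 34277421 counts. Levels are given as CPM, counts scaled to a common library size with TMM factors, and 3 counts correspond to 0.0875 to 0.160 CPM before scaling. The differences are from edgeR's quasi-likelihood test over all 24 libraries with Benjamini-Hochberg adjustment over all 19387 genes, and a gene is called at an adjusted p under 0.05. Gene models on the opposite strand covered 7.98% of the exonic bases of ACVR2A (ORC4 among them), 6.64% of those of TGFB1 (HNRNPUL1) and 2.00% of those of SMAD3, and whether the counting used strand is not given, so reads there could belong to either gene. The 9 markers of colonic epithelium were all above 3 counts in every library of HT29, LS513 and LS174T, and 7 were in HCT116 2D and 8 in HCT116 3D. Of 7 fibroblast markers, 4 to 6 were at 3 counts or less in every library of a group, and the markers summed to between 0.653 and 22.1 CPM per library. The 4 endothelial markers summed to at most 2.38 CPM. The 6 leukocyte markers summed to 10.04 to 21.6 CPM in 2D libraries and 11.8 to 93.6 CPM in 3D libraries, and CD68 was higher in 3D in all 4 lines. PTPRC, the pan-leukocyte marker, had at most 2 counts in a library, and CD3E and the fibroblast collagen COL1A2 had 0 in every library. COL1A1, another collagen among the fibroblast markers, had 296 to 655 counts per library in HCT116. Its group means there were 14.06 CPM in 2D and 16.05 CPM in 3D. The part of the CD68 levels in the results was not tested.

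**Figure D1:**
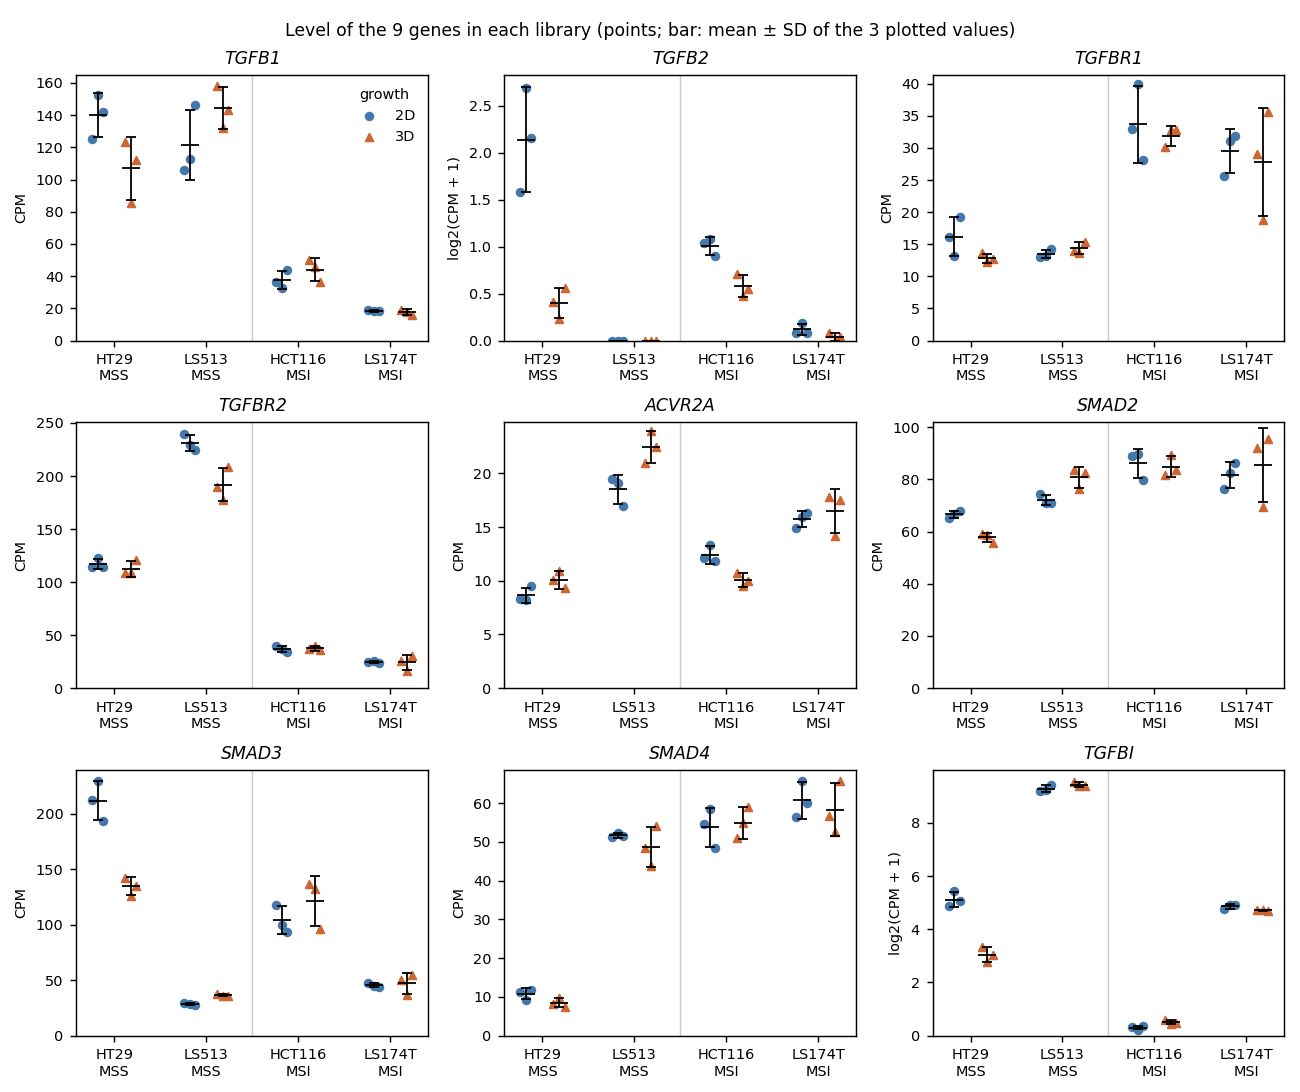
Levels of the 9 genes by cell line (x axis), with 2D libraries as circles and 3D libraries as triangles; the y axis is CPM from 0, or log2(CPM + 1) for TGFB2 and TGFBI, and bars are the mean ± SD of 3 plotted values. TGFBR2 and TGFB1 are higher in every MSS library than in every MSI library, SMAD4 is lowest in HT29, and TGFBI and TGFB2 are lower in 3D than in 2D in HT29.

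TGFB1 (chr19:41301587-41353911, minus strand), the prototype TGF-beta ligand, was the more abundant ligand and was higher in both MSS lines than in both MSI lines. Over 12 libraries each, it was at 85.4, 129 and 158 CPM (lowest, median and highest) in MSS lines and at 15.7, 26.1 and 50.3 CPM in MSI lines. The libraries of the types did not overlap. The fold was 4.70-fold lower in MSI lines (log2 difference -2.23 ± 0.08 SE, adjusted p = 3.7e-18). TGFB1 was lower in all 4 comparisons of an MSI line with an MSS line, by 1.58 to 2.88 on the log2 scale. The MSI lines also differed from each other, with TGFB1 2.27-fold higher in HCT116 than in LS174T (adjusted p = 4.8e-10). HT29 and LS513 were not told apart (log2 difference -0.12, 95% interval -0.33 to 0.09, adjusted p = 0.324).

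TGFB2 (chr1:218346235-218444619, plus strand), another ligand of the same receptors, was the scarcer of the ligands TGFB1 and TGFB2 in all lines and had no count in LS513. HT29 had the most, with 58, 159 and 63 counts in the 2D libraries and 11, 5 and 13 counts in the 3D libraries. HCT116 had 12 to 39 counts per library, 146 in total, and LS174T had 0 to 5 counts, 12 in total over 6 libraries. Against 3 counts over the 6 LS513 libraries, TGFB2 was at least 112-fold higher in HT29 and at least 46.5-fold higher in HCT116. The HT29 bound leaned on 2D replicate 2, without which it was 66.1-fold, and in settings added after the data were seen the 3D libraries alone gave 19.5-fold in HT29 and 29.99-fold in HCT116 against the same floor. The fitted MSI-against-MSS value of TGFB2 rests on a line at 0 and is not given. TGFB2 shared 26.6% of its exonic bases with TGFB2-OT1, a gene model within its last exon on the same strand, so reads in that stretch could belong to either.

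TGFBR2 (chr3:30606502-30694142, plus strand), the receptor that binds TGF-beta itself, differed most between the lines among the receptors and was lower in MSI lines. In MSS lines it ranged from 108 to 239.7 CPM with a median of 149.9, and in MSI lines from 16.6 to 39.8 CPM with a median of 31.9. No MSI library reached the lowest MSS library. TGFBR2 was 5.16-fold lower in MSI lines (log2 difference -2.37 ± 0.07 SE, adjusted p = 1.1e-19). The order LS513, HT29, HCT116, LS174T held with every neighbour called, since LS513 was 1.84-fold above HT29 (adjusted p = 5.8e-09), HT29 3.09-fold above HCT116 (8.5e-14) and HCT116 1.51-fold above LS174T (3.3e-06).

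TGFBR1 (chr9:99104038-99154192, plus strand), the kinase partner of TGFBR2, was higher in the MSI lines. It was at 18.9 to 40.0 CPM in MSI lines and 12.2 to 19.3 CPM in MSS lines, and 1 HT29 2D library at 19.3 CPM stood above the lowest MSI library, LS174T 3D replicate 2. TGFBR1 was 2.17-fold higher in MSI lines (log2 difference 1.12 ± 0.09 SE, adjusted p = 2.9e-11) and was called in all 4 cross-type comparisons. Neither pair of lines of the same type was told apart, with log2 differences of 0.19 (95% interval -0.05 to 0.44) for HCT116 against LS174T and 0.05 (-0.20 to 0.30) for HT29 against LS513. Per kilobase of exon, TGFBR2 exceeded TGFBR1 by a median ratio of 12.2 in HT29 and 21.4 in LS513 but by 1.75 in HCT116 and 1.25 in LS174T, each over 6 libraries.

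ACVR2A (chr2:147844517-147930826, plus strand), the activin type II receptor with 2 of the adenine runs shown above, did not follow the type over both growth conditions. Line means were 20.5 CPM in LS513, 16.1 in LS174T, 11.3 in HCT116 and 9.37 in HT29, so the MSI lines lay between the MSS lines. The MSI-against-MSS difference was -0.04 (95% interval -0.15 to 0.08, adjusted p = 0.585), while in 3D libraries alone it was called at -0.25 (adjusted p = 0.0337) and in 2D libraries alone it was 0.13 (adjusted p = 0.1). Every pair of lines was called. The call for HCT116 against HT29 (log2 difference 0.26, adjusted p = 0.00477) was absent in 3D libraries alone (-0.06, adjusted p = 0.728) and was lost without HCT116 3D replicate 1 (0.055), HT29 2D replicate 2 (0.0585) or HT29 3D replicate 4 (0.0635).

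Across the receptors and ligands, TGFBR1, TGFBR2 and TGFB1 were called in the same direction in all 4 cross-type comparisons, which held for 3 of the 9 members and for 19.1% of all genes tested. Over the types as groups, 7 of 9 members were called, against 70.3% of all genes. By pair of lines, 8 members were called in HCT116 against HT29 (75.7% of all genes) and in HCT116 against LS513 (76.2%), 9 in LS174T against HT29 (73.5%), 8 in LS174T against LS513 (68.9%), 6 in HCT116 against LS174T (76.0%) and 7 in HT29 against LS513 (69.3%). These shares are near the background, since most genes differ between any lines. With 2 lines per type, an exact permutation test over line means cannot go below a two-sided p of 0.333, and the medium and the line cannot be told apart for HCT116.

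**Figure D2:**
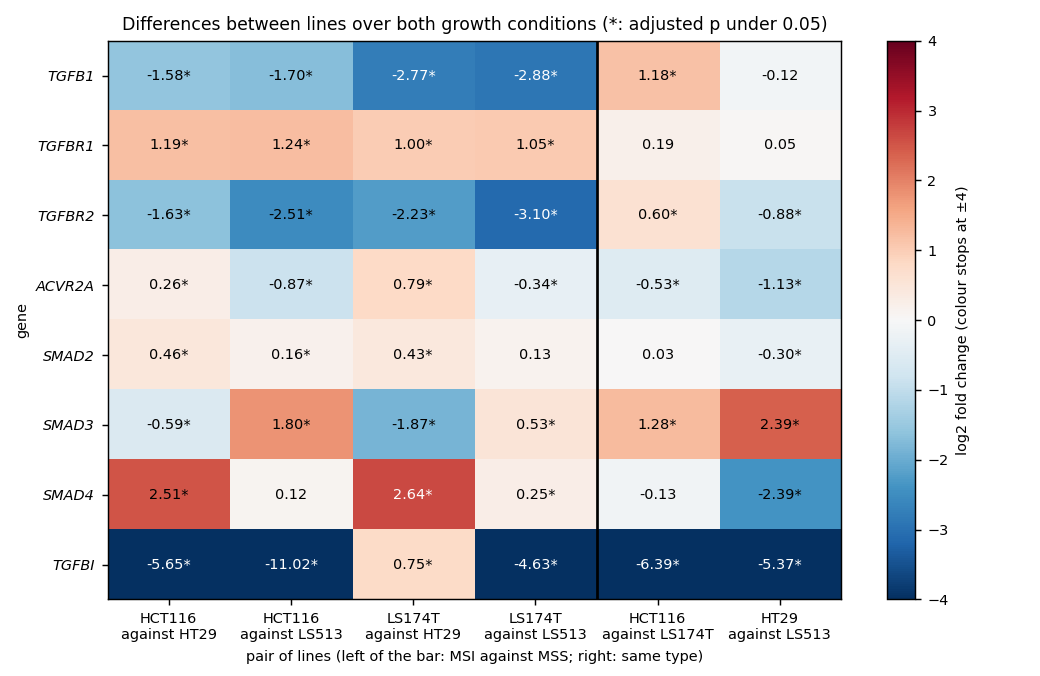
Log2 differences between lines over both growth conditions (columns) for 8 of the genes (rows), TGFB2 left out because LS513 had no count; asterisks mark an adjusted p under 0.05 and the colour stops at ±4. The first 4 columns, an MSI line against an MSS line, are all negative for TGFB1 and TGFBR2 and all positive for TGFBR1, while the values of SMAD4 are largest against HT29.

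SMAD2 (chr18:47808957-47931146, minus strand), which relays the signal from the receptor, had the smallest ratio between its highest and lowest line mean of the 9 genes. Line means were 85.5 CPM in HCT116, 83.6 in LS174T, 76.4 in LS513 and 62.2 in HT29. The MSI lines were 1.23-fold higher on average (log2 difference 0.30 ± 0.05 SE, adjusted p = 5.4e-06), while HCT116 and LS174T were not told apart (0.03, 95% interval -0.11 to 0.17). This type difference came mostly with HT29, against which HCT116 was at 0.46 and LS174T at 0.43. LS174T against LS513 was not called (0.13, adjusted p = 0.0862), but passed in 2D libraries alone (0.0446) and without LS174T 3D replicate 2 (0.00317). The SMAD2 call for HCT116 against LS513 (log2 difference 0.16, adjusted p = 0.0305) is lost when any 1 of 11 of the 12 libraries is left out, with adjusted p between 0.0518 and 0.211. Without LS513 2D replicate 1 it is kept.

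SMAD3 (chr15:67063763-67195195, plus strand), the partner of SMAD2 that binds DNA directly, varied more within each type than between them. Line means were 173 CPM in HT29, 113 in HCT116, 46.3 in LS174T and 32.4 in LS513. All 6 pairs of lines were called, from 1.44-fold between LS174T and LS513 to 5.25-fold between HT29 and LS513, while the type difference was -0.03 (95% interval -0.17 to 0.10, adjusted p = 0.733). In 2D libraries alone the type difference was called at -0.19 (adjusted p = 0.0126), and in 3D libraries alone it was 0.09 (adjusted p = 0.525). In 3D libraries alone, HCT116 against HT29 (adjusted p = 0.267) and LS174T against LS513 (0.0518) were not called. HT29, at the top for SMAD3, was at the bottom for SMAD4.

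SMAD4 (chr18:51028394-51085045, plus strand), the shared partner of SMAD2 and SMAD3, was low in HT29 and higher in the other 3 lines. The 6 HT29 libraries were at 7.47 to 11.8 CPM, and the 18 libraries of the other lines were at 43.8 to 65.75 CPM, so no HT29 library came near them. SMAD4 was 5.25-fold lower in HT29 than in LS513 (log2 difference -2.39 ± 0.09 SE, adjusted p = 2.4e-17). The type difference of 1.38 (adjusted p = 3.9e-16) came with this line, since HCT116 against LS513 was at 0.12 (95% interval -0.05 to 0.28, adjusted p = 0.201) and LS174T against LS513 at 0.25 (adjusted p = 0.00956, and 0.0929 in 3D libraries alone). SMAD4 shared 7.37% of its exonic bases with a gene model on the same strand.

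TGFBI (chr5:136028895-136063818, plus strand) encodes a secreted matrix protein first found as a TGF-beta-induced gene, and its level had the widest range of the 9. LS513 was at 582 to 740.7 CPM and HCT116 at 0.172 to 0.499 CPM, with 61 counts in all 6 HCT116 libraries. HT29 and LS174T lay between, with line means of 20.7 and 26.7 CPM. The MSI lines were 35.2-fold lower on average (log2 difference -5.14 ± 0.09 SE, adjusted p = 1.7e-23), but the direction was not shared, as LS174T was 1.68-fold above HT29 (adjusted p = 1.8e-07). The order turned with growth: in 2D libraries alone LS174T was below HT29 by 0.29 on the log2 scale (adjusted p = 0.0314).

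The next comparison was growth in 3D against 2D within each line. In HT29, 5 of the 9 genes were called and all 5 were lower in 3D, against 40.7% of all genes called and 19.6% called lower. In LS513 none was called (23.6% of all genes), in HCT116 1 was called (29.1%, with 12.3% called lower) and in LS174T none was (22.2%). The count of 0 in LS513 stood beside 3 members at an unadjusted p under 0.05 and 2 called by DESeq2, and that of LS174T beside 0 and 0. LS174T 3D had the widest spread between libraries, a median chi-square per degree of freedom of 12.43 against 2.245 to 6.692 in the other groups. Its replicate 2 was the lowest of the group for 7 of the 9 members. The 0 in LS174T therefore does not show that growth had no effect there.

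TGFBI fell most clearly in HT29. Its 2D libraries were at 28.0, 41.8 and 32.0 CPM and its 3D libraries at 9.20, 5.81 and 7.18 CPM. All 3D libraries were below all 2D libraries. The fall was 4.58-fold (log2 difference -2.19 ± 0.14 SE, adjusted p = 2.0e-10). In the other lines TGFBI did not pass the test, with log2 differences of 0.16 in LS513, 0.84 in HCT116 at 6 to 15 counts per library, and -0.16 in LS174T. The growth effect differed among the 4 lines (adjusted p = 2.5e-08). Its mean over the 2 MSI lines was above that over the 2 MSS lines by 1.36 ± 0.22 on the log2 scale (adjusted p = 8.9e-04). That contrast came with the fall in HT29 and the uncalled value in HCT116, while LS513 and LS174T went the other way. Among the members TGFBI was the only 1 called in it, against 2.70% of all genes.

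TGFB2 was also lower in HT29 3D, at 1.99, 5.47 and 3.45 CPM in 2D and 0.332, 0.173 and 0.472 CPM in 3D. The groups did not overlap, at 5 to 13 counts per 3D library. The fall was 11.1-fold (log2 difference -3.47 ± 0.41 SE, adjusted p = 2.6e-06). In HCT116 its 2D libraries, at 27 to 39 counts, were also above the 3D libraries, at 12 to 19 counts, with a log2 difference of -1.03 that did not pass (95% interval -1.86 to -0.19, adjusted p = 0.0606). It passed with all genes of at least 1 count (-1.06, adjusted p = 0.0303) and in the fit of the line's own 6 libraries (-1.05, adjusted p = 0.0223).

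SMAD3 in HT29 was at 212, 229.5 and 194 CPM in 2D and at 142, 126 and 135 CPM in 3D. The groups were apart by more than the spread within either. The fall was 1.57-fold (log2 difference -0.66 ± 0.13 SE, adjusted p = 3.5e-04). In LS513 the 3D libraries, at 35.7 to 37.6 CPM, were all above the 2D libraries, at 27.6 to 29.6 CPM, with a log2 difference of 0.36 (95% interval 0.08 to 0.63, adjusted p = 0.0544). This rise passed in 5 of 12 alternatives, with the lowest adjusted p of 0.00992 in the fit of the line's own 6 libraries. The effect of growth on SMAD3 differed among the lines (adjusted p = 0.00122). The HT29 falls of TGFBI, TGFB2 and SMAD3 kept their call in each of 12 alternatives.

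SMAD4 and TGFB1 were lower in HT29 3D by less. SMAD4 was at 11.35, 9.19 and 11.8 CPM in 2D and 8.27, 9.72 and 7.47 CPM in 3D, so the groups overlapped (log2 difference -0.34 ± 0.13 SE, adjusted p = 0.0343). TGFB1 was at 125.5, 152 and 142 CPM in 2D and 124, 85.4 and 112 CPM in 3D (log2 difference -0.39 ± 0.14 SE, adjusted p = 0.0348). Neither call was firm. Over the 12 alternatives the adjusted p of SMAD4 ranged from 0.0209 to 0.223 and its call was kept in 3, being lost without 2D replicate 1 (0.194), 2D replicate 3 (0.184), 3D replicate 1 (0.129) or 3D replicate 4 (0.223). That of TGFB1 ranged from 0.0255 to 0.313 and was kept in 4, being lost without 2D replicate 1 (0.0539), 2 (0.189) or 3 (0.11) or without 3D replicate 3 (0.313) or 4 (0.0793).

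ACVR2A was the 1 gene called in HCT116, at 12.1, 13.4 and 11.8 CPM in 2D and 10.8, 9.51 and 9.995 CPM in 3D. All 3D libraries were below all 2D libraries, by 1.23-fold (log2 difference -0.30 ± 0.11 SE, adjusted p = 0.046). In HT29 and LS513 the values were higher in 3D without passing the test, by 0.23 (95% interval -0.01 to 0.47) and 0.28 (0.05 to 0.50). The effects differed among the lines (adjusted p = 0.0353), and the HCT116 call was kept in 3 of 12 alternatives, being lost without 2D replicate 1 (0.0817), 2D replicate 2 (0.177), 3D replicate 2 (0.126) or 3D replicate 3 (0.0645).

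**Figure D3:**
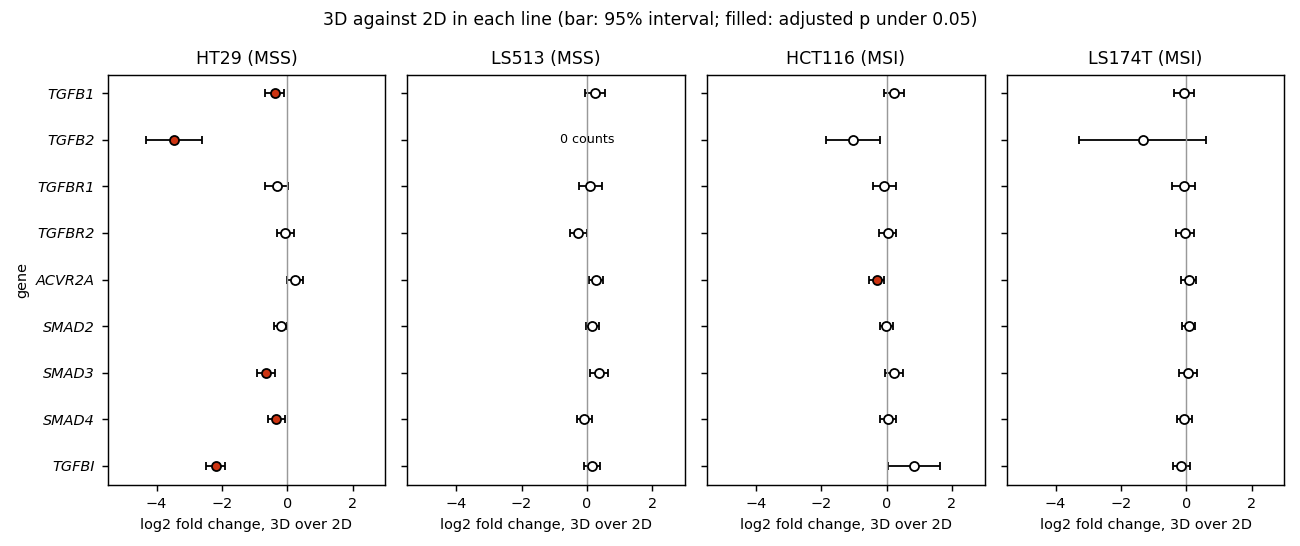
Log2 fold change of 3D over 2D (x axis) for the 9 genes (rows) in each line (panels), with 95% intervals; filled points have an adjusted p under 0.05. The 5 filled points in HT29 are all below 0, HCT116 has 1 and the panels of LS513 and LS174T have none.

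The receptors TGFBR1 and TGFBR2 and the transducer SMAD2 were not called in any line for growth. Their log2 differences ran from -0.33 for TGFBR1 in HT29 to 0.16 for SMAD2 in LS513. TGFBR2 in LS513 was at 239.7, 229 and 225 CPM in 2D and at 189.9, 177 and 209 CPM in 3D, with no overlap, and its difference of -0.27 (95% interval -0.53 to -0.01) had an adjusted p of 0.131. It passed only in the fit of the line's own 6 libraries (adjusted p = 0.02). SMAD2 had no overlap in HT29, where it was lower in 3D (-0.20, adjusted p = 0.0908), or in LS513, where it was higher (0.16, adjusted p = 0.232). In HT29 SMAD2 passed only in the fit of that line's own 6 libraries (adjusted p = 0.0486). Among the members, 4 had growth effects that differed among the lines, against 17.1% of all genes: TGFBI, SMAD3, TGFB2 and ACVR2A. For TGFB2 that test includes LS513, where both conditions had 0 counts. The call was kept in 22 of 29 alternatives for ACVR2A and in 20 of 29 for TGFB2. Without HCT116 2D replicate 1 both were lost (adjusted p = 0.0571 and 0.0549), which left 2 members, and without LS174T 3D replicate 2 TGFBR2 (0.0415) and SMAD2 (0.0286) also passed.

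A list of 68 other genes of the pathway, 62 of them tested, gave the setting. In 3D, 9 were called higher and 22 lower in HT29, 15 and 7 in LS513, 18 and 6 in HCT116, and 8 and 7 in LS174T. The shares of all genes called higher and lower were 21.1% and 19.6% in HT29, 13.7% and 9.90% in LS513, 16.8% and 12.3% in HCT116, and 13.1% and 9.15% in LS174T. The median log2 difference of the list was -0.11, 0.05, 0.18 and -0.03 in HT29, LS513, HCT116 and LS174T, and that of all genes tested was 0.00, 0.00, 0.01 and 0.02. The list did not move 1 way in all lines, and 28 of the 62, or 45.2%, had effects that differed among them, against 17.1% of all genes. The list was chosen with earlier results of these data known, so these shares only describe it.

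The other ligands were scarce except GDF11. That ligand of activin receptors, named after its values were seen, had group means of 6.23 to 22.1 CPM and was not called for growth in any line. INHBA, INHA, NODAL, FST, LEFTY1 and LEFTY2, which are ligands or their extracellular inhibitors, had at most 9 counts in a library and were not tested. TGFB3, the remaining TGF-beta isoform, fell in LS513 from 4.44 ± 0.94 CPM (SD, n = 3) to 1.96 ± 0.05 CPM (log2 difference -1.18, adjusted p = 0.00125). CD109, a co-receptor that holds back TGF-beta, fell in LS174T from 21.9 ± 1.9 to 4.47 ± 1.22 CPM (log2 difference -2.29, adjusted p = 6.1e-07).

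Among 8 other receptors and co-receptors, 2 rose and 0 fell in HT29, 1 rose and 3 fell in LS513, 2 rose and 1 fell in HCT116, and 0 rose and 2 fell in LS174T. ACVR1B, the type I partner of ACVR2A, rose in HT29 from 26.4 ± 1.5 to 36.1 ± 1.1 CPM (adjusted p = 0.00106) and fell in LS174T from 39.1 ± 2.1 to 31.3 ± 5.6 CPM (adjusted p = 0.0255). ACVR2B, the other activin type II receptor, fell in LS513 from 12.9 ± 1.1 to 8.26 ± 0.88 CPM (adjusted p = 0.00742). TGFBR3, the co-receptor betaglycan, fell in LS513 (log2 difference -0.73, adjusted p = 0.00403) and in HCT116 (-0.49, adjusted p = 0.0456). TDGF1, the co-receptor of nodal, fell in LS513 from 6.42 ± 0.80 to 2.75 ± 0.14 CPM (adjusted p = 0.00105). BAMBI, a receptor decoy, was at 0 to 7 counts in HT29 and at 2.24 to 4.89 CPM in the other lines, and was not called in any.

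Of 21 SMADs and SMAD regulators, 12 fell and 1 rose in HT29, while in LS513 2 rose and 3 fell, in HCT116 1 rose and 3 fell, and in LS174T 0 rose and 3 fell. The share called was 61.9% in HT29, against 40.7% of all genes, and 23.8% in LS513, against 23.6%. It was below that of all genes in HCT116 (19% against 29.1%) and LS174T (14.3% against 22.2%). SKIL, a repressor of SMAD activity that TGF-beta itself induces, fell in HT29 from 62.8 ± 7.8 to 43.2 ± 7.7 CPM (adjusted p = 0.0214), in LS513 (log2 difference -0.58, adjusted p = 0.0401) and in LS174T from 19.0 ± 2.3 to 5.81 ± 1.75 CPM (adjusted p = 2.4e-06). PMEPA1, a feedback inhibitor, fell in HT29 from 156 ± 18 to 58.1 ± 5.3 CPM (adjusted p = 1.7e-07) and in LS174T (log2 difference -1.37, adjusted p = 4.2e-06). SMAD7, the inhibitory SMAD, rose in LS513 from 2.02 ± 0.16 to 4.25 ± 0.65 CPM (adjusted p = 1.2e-04). HT29, with the lowest SMAD4, had the highest PMEPA1 and SKIL of the 4 lines in both conditions. BAMBI, from the same list of regulators, was lowest in HT29. A relation of these levels to SMAD4 was not tested.

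Of 18 genes listed as targets, 6 rose and 5 fell in HT29, 8 rose and 0 fell in LS513, 10 rose and 1 fell in HCT116, and 8 rose and 0 fell in LS174T. In that order of lines, 61.1%, 44.4%, 61.1% and 44.4% were called, against 40.7%, 23.6%, 29.1% and 22.2% of all genes. Several of the listed targets also answer to hypoxia, stress or p53. CDKN1A, the cell cycle inhibitor p21, rose in all 4 lines, from 0.76 in HCT116 (adjusted p = 0.025) to 2.15 on the log2 scale in HT29 (adjusted p = 6.4e-06). BHLHE40, a repressor of transcription induced by hypoxia, also rose in all 4, from 0.94 in HT29 (adjusted p = 0.0473), where the libraries overlapped, to 3.17 in LS513 (adjusted p = 4.1e-06). These were the 2 genes of the list called higher in all 4 lines, against 3.14% of all genes. JUNB, an AP-1 transcription factor named after its values were seen, had every 3D library above every 2D library in each line. It was not called in LS513 (log2 difference 0.48, adjusted p = 0.239). In the other direction, SKI and STRAP, from the SMAD regulators, had every 3D library below every 2D library in each line. They too were named after their values were seen, and neither was called lower in all 4 lines. IGFBP3, a binder of insulin-like growth factors, went from 2 to 5 counts per library to 347 to 793 counts in LS513 and rose in LS174T from 32.0 ± 3.9 to 105 ± 8 CPM (adjusted p = 8.8e-05).

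FN1, the matrix protein fibronectin, fell in HT29 from 17 to 53 counts per library to 2 to 8 counts (adjusted p = 0.00145) and rose in LS513 from 5.22 ± 3.63 to 15.5 ± 3.8 CPM (adjusted p = 0.00156). TAGLN, an actin-binding protein, fell in HCT116 (log2 difference -1.16, adjusted p = 0.0324) with overlapping libraries.

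**Figure D4:**
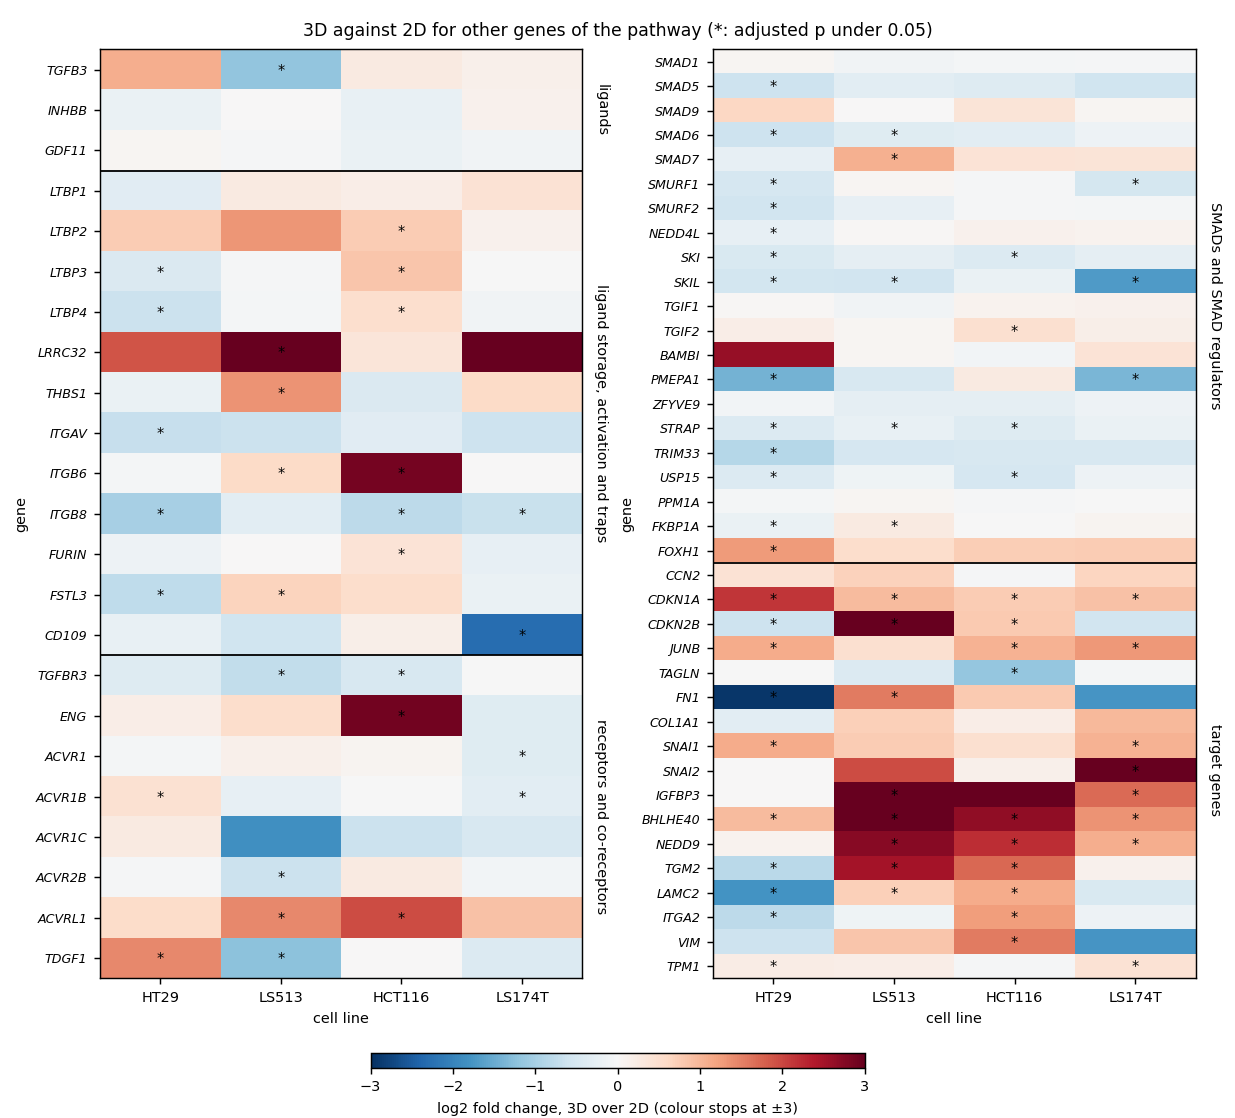
Log2 fold change of 3D over 2D (colour, which stops at ±3) of 61 of the 62 other pathway genes tested (rows, by role) in each line (columns); asterisks mark an adjusted p under 0.05. In HT29 12 of 21 SMADs and regulators fell, against 19.6% of all genes called lower. CDKN1A and BHLHE40 rose in all 4 lines.

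Genes with the most similar pattern were ranked by Pearson's r over the 8 group means of log2 levels, as a description of 4 lines that share these libraries. For TGFBR2 they were GTF3A (r = 0.9935), ACAD9 (0.9912) and ALPP (0.9907). For ACVR2A they were GK (0.9835), THOC7 (0.9822) and TCAIM (0.9781), for TGFB2 ANXA5 (0.975), MIR222HG (0.9689) and SERPINB7 (0.9673), and for TGFBI MLKL (0.9937), CLDN1 (0.9923) and PDIA6 (0.9894). None of these is among the listed genes of the pathway.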

How the data were processed

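RNA was sequenced from 8 groups of 3 libraries. Per the study's methods, poly(A) mRNA libraries were made with a stranded kit and sequenced as single reads, and the authors trimmed reads with Trim Galore 0.4.1, aligned them with STAR, dropped multiply aligned reads and counted with HTSeq-count 0.5.3; the strand option is not given in the sources used here. The notes name hg19 and the methods an Ensembl annotation of GRCh38. The deposited values are raw counts per gene for 8 technical replicates per library, without normalization; 1 replicate of an HT29 3D library was not analysed here.

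The technical replicates of a library were added up, since they differed no more than sampling noise (median chi-square per degree of freedom 0.906 to 0.933). Cell line, growth and replicate number came from the labels, and MSI or MSS status from the study. In R 4.3.3 with edgeR 4.0.16, filterByExpr kept 19387 genes, TMM scaling was used, and a robust quasi-likelihood fit had 1 coefficient per group. Standard errors were the absolute log2 difference divided by the square root of F, and 95% intervals used the degrees of freedom of the fit. On data simulated for HT29 3D against 2D, with 19108 genes, 90 of 100 genes changed by 1 on the log2 scale and 33 of 100 changed by 0.5 were called, with 5 false calls, and the test of growth effects among the 4 lines called 68 and 8 of them. No other simulated gene had a growth effect, while 40.7% of all genes were called in the real HT29 comparison. The changed genes were above 1 CPM in HT29. These rates therefore need not hold for the reported tests or for genes at low counts. Totals of 18723942 to 34277421 counts make counting error small except for TGFB2 and for TGFBI in HCT116, and the floor of 3 counts covers counting error only. Positions and coding sequences came from GENCODE 29, which held 57980 of the 58243 identifiers; no protein sequences were used.

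The 9 genes and the lists were chosen with earlier results of these data known. Beyond the 9, genes were named as the largest rise and fall in each line among called listed genes with at least 1 CPM, those called in the same direction in all 4 lines, and a set list. Some listed genes are counted in their list but not reported singly here. Alternatives were DESeq2 1.42.0 as test and its size factors in edgeR, all genes with at least 1 count, no technical replicate d, a replicate block, 1 growth condition or 1 line only, the study's cutoffs, and leaving out each library.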

Additional observations from a re-analysis of the deposited data

Results flagged for a closer look

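Growth effects that differed among the 4 lines, by an interaction test in edgeR with adjustment over all genes, are listed with their adjusted p. TGFBI had 2.5e-08, with HT29 the line in which a fall was called. Its mean effect over the 2 MSI lines also differed from that over the 2 MSS lines (8.9e-04). LS513 and LS174T went against that contrast, and libraries replicate a line rather than a type. SMAD3 had 0.00122, with a fall in HT29. Its higher value in LS513 3D was called in 5 of 12 alternatives, and that in HCT116 3D only without HCT116 3D replicate 3 (adjusted p = 0.0469).

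ACVR2A had 0.0353, which went to 0.155 with the replicate block, 0.149 with all genes of at least 1 count, 0.0571 without HCT116 2D replicate 1, 0.103 without HCT116 2D replicate 2, 0.0793 without HCT116 3D replicate 2, 0.0518 without LS513 2D replicate 2 and 0.0644 without LS513 2D replicate 3. TGFB2 had 0.0308, which went above 0.05 with the replicate block (0.174) and without HCT116 2D replicate 1 (0.0549) or 3 (0.0692), HCT116 3D replicate 1 (0.0949) or 3 (0.0536), HT29 2D replicate 2 (0.098) or 3 (0.0524), or HT29 3D replicate 1 (0.0786) or 3 (0.0938).

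Among regulators and receptors, SMAD7 had 0.00206, SKIL 0.00223, PMEPA1 0.0105, ACVR1B 0.00122, ACVR2B 0.0416, TDGF1 0.0141 and CD109 6.6e-05. Among the other ligands TGFB3 had 0.0071. Among the listed targets, FN1 had 0.00111, with log2 differences of -2.91 in HT29 and 1.57 in LS513, CDKN1A 0.0372 and BHLHE40 0.00804. IGFBP3 had 4.2e-06, with 0 counts in every HT29 library.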

How the results depend on the processing

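Over all alternatives, 2084 of 2217 refitted values of single members kept their direction and their side of the threshold. Of the others, 28 passed where the reported value did not, 67 no longer passed and 38 changed sign, most of them near 0. The cause was not tested.

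With DESeq2 size factors, 3 members were called for growth in HT29, 1 in LS513 and 0 in HCT116. With all genes of at least 1 count, 1 was called in LS513, and with the DESeq2 test 2 were called in LS513 and 2 for the growth effect in MSI minus MSS lines. Without technical replicate d, 0 were called in HCT116, and in the fit of its own 6 libraries LS513 had 2. With the study's cutoffs, the counts were 3 in HT29, 0 in HCT116, 0 for the growth effect in MSI minus MSS lines, 4 for MSI against MSS, 5 for HCT116 against HT29, 5 for LS174T against HT29, 4 for LS174T against LS513 and 3 for HCT116 against LS174T. In 3D libraries only, LS174T against LS513 had 5. With 1 library left out, the counts were 3 to 4 in HT29, 0 to 1 in HCT116 and 2 to 6 for the interaction over lines, the 2 arising without HCT116 2D replicate 1 and the 6 without LS174T 3D replicate 2.

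The replicate block of line and number gave 3 members in HT29, 1 in LS513, 0 in HCT116 and 2 for the interaction. Same-numbered 2D and 3D libraries correlated between -0.209 and 0.216 in their deviations, so the numbers are not taken as pairs, and not every library correlated best with its own number. The block moved the count of all genes called for the interaction from 3314 to 1698 and for the growth effect in MSI minus MSS lines from 524 to 184. That last count was 802 with all genes and 853 with DESeq2. The count of all genes called was 1648 in place of 4305 for LS174T in the fit of its own 6 libraries and 2083 without LS174T 3D replicate 2. It was 2616 to 2781 without any 1 of the LS174T 2D libraries, 3030 and 2784 in place of 4571 for LS513 without 2D replicate 2 and without 3D replicate 2, and 3747 in place of 5637 for HCT116 without 2D replicate 1.

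Signs that turned, as log2 differences, were with all genes TGFBR2 (-0.01) and SMAD4 (-0.00) for growth in HCT116 and SMAD2 (-0.01) for HCT116 against LS174T. In 2D libraries only they were ACVR2A for MSI against MSS (0.13), TGFBI for LS174T against HT29 (-0.29) and TGFB1 for HT29 against LS513 (0.21). In 3D libraries only they were SMAD3 for MSI against MSS (0.09), ACVR2A (-0.06) and TGFB2 (0.55) for HCT116 against HT29, SMAD2 for HCT116 against LS174T (-0.01) and TGFBR1 for HT29 against LS513 (-0.10). Leaving out 1 library gave -0.07 to 0.02 for TGFBR2 in HT29. In HCT116 it gave -0.22 to 0.06 for TGFBR1, -0.06 to 0.08 for TGFBR2, -0.10 to 0.01 for SMAD2 and -0.07 to 0.09 for SMAD4. In LS174T it gave -0.30 to 0.14 for TGFBR1, -0.21 to 0.18 for TGFBR2, -0.02 to 0.21 for SMAD2, -0.07 to 0.22 for SMAD3, -0.15 to 0.02 for SMAD4 and -0.15 to 0.00 for TGFB1. For the growth effect in MSI minus MSS lines it gave -0.07 to 0.12 for TGFBR1 and -0.01 to 0.09 for SMAD2, and for HCT116 against LS174T -0.06 to 0.07 for SMAD2. Depth limits TGFB2 in LS513 and LS174T, at 0 to 5 counts per library, and TGFBI in HCT116, at 6 to 15.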
